A study of Homo sapiens with 10 samples.

Results

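Tight junctions seal the space between neighbouring epithelial cells and separate the apical from the basolateral membrane. Claudins form the strands that make the seal and set which ions pass, the MARVEL proteins occludin and tricellulin shape the strands and close the corners where several cells meet, and the adhesion molecule JAM-A helps to place the junction. Zonula occludens (ZO) scaffolds and cingulin lie under the membrane and tie these proteins to actin. The values below describe mRNA of 9 such genes among the 60168 genes quantified, taken by symbol from a set that was chosen with earlier results of these data known: the claudins CLDN1, CLDN4 and CLDN7, the MARVEL genes OCLN (occludin) and MARVELD2 (tricellulin), F11R (JAM-A), the scaffolds TJP1 (ZO-1) and TJP3 (ZO-3), and CGN (cingulin). All 9 passed the filter on low counts, which kept 15768 genes.

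Polyadenylated RNA was sequenced from MCF10A, a non-tumorigenic human mammary epithelial line in which YAP activity is experimentally raised to study epithelial growth and movement. MCF10A-YAP5SA cells (2 libraries, A and B) carried a vector for a YAP protein that escapes inhibitory phosphorylation, MCF10A-TRAM2 cells (4 libraries, A to D) carried a vector for TRAM2, a component of the endoplasmic reticulum translocon, and MCF10A-control cells (4 libraries, A to D) carried an empty vector. All were transduced cultures of the same parental line, selected with antibiotic and harvested at 70 to 80% confluency, and tight junctions assemble as cells meet, so that confluency belongs to the background of every value. By the paper's methods, YAP5SA was cloned into a pLenti backbone with blasticidin resistance and TRAM2 into a pCDH backbone with puromycin resistance. The backbone of the empty vector is not named there, and backbone and resistance gene cannot be told apart from the inserts. The labels do not say whether letters stand for separate transductions, and the submitters' design text gives a different number of replicates from the libraries listed.

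Control libraries A and C, and likewise B and D, could not be told apart from sampling noise over genes with whole counts (chi-square per degree of freedom 0.989, p = 0.66, and 1.04, p = 0.090), although they differed once genes with fractional counts were included, and they were counted as 1 sample each, control 1 and control 2, which left 8 samples with 12477031 to 21542413 estimated counts. Library names place A and B on one sequencing run and C and D on another, and MCF10A-YAP5SA cells were sequenced on the first run alone. TRAM2 stood at 245 ± 3.6 CPM (counts scaled to the size of the library) in MCF10A-YAP5SA, 428 ± 150 CPM in MCF10A-TRAM2 and 28.6 ± 0.35 CPM in control samples (SD, n = 2, 4 and 2), and YAP1 at 340 ± 3.5, 187 ± 6.4 and 187 ± 0.10 CPM. Each gene was thus raised in the cells with its vector. MCF10A-YAP5SA carried no TRAM2 vector, and TRAM2 was higher there than in control samples too (log2 fold change 3.1, adjusted p = 0.0031 by the edgeR test below). The paper describes TRAM2 as a target of YAP. The defining basal keratin KRT5 stood at 846 to 874 CPM in MCF10A-YAP5SA, 1480 to 1681 CPM in MCF10A-TRAM2 and 1646 to 1653 CPM in control samples.

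RefSeq (GRCh38.p14) gave promoter entries for 8 of the 9 genes. These entries were searched on both strands, over the 250 bases before the start, for the E-box CACCTG or its reverse complement CAGGTG, a sequence that repressors of the SNAI and ZEB families are known to bind, and for CATTCC or its reverse complement GGAATG, the core that TEAD factors, the DNA-binding partners of YAP, recognise. Over all 35116 such windows, 17.5% held at least 1 E-box, 0.122% held 4 or more, and 11.9% held a TEAD core. CLDN7 held 4 E-boxes in the window before its most used start (chr17:7262479-7262728, minus strand), with first bases at -174, -135, -20 and -9. Because CLDN7 had the largest fold change measured below between groups with counts, its last 30 bases before the start are shown first, followed by those of CLDN4, which also fell, and of CLDN1, whose level did not pass the test. Capitals mark E-boxes, and each sequence runs 5′ to 3′ on the strand of its gene.
CLDN7, chr17:7262479-7262508, minus strand: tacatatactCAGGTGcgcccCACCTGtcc
CLDN4, chr7:73830966-73830995, plus strand: ccatataactgctcaacctgtccccgagag
CLDN1, chr3:190322447-190322476, minus strand: gctttaaatcgcggcgcccagcggttctgc
The E-boxes farther from the start of CLDN7, and the E-box of the OCLN window, are shown with their flanks.
CLDN7, chr17:7262635-7262664, minus strand: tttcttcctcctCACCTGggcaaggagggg
CLDN7, chr17:7262596-7262625, minus strand: cgacttccggttCAGGTGagtgtcccttcg
OCLN, chr5:69492645-69492674, plus strand: tctaggacgcagCAGGTGggactcgcggcg
For CLDN1, CLDN4, MARVELD2, TJP1, TJP3 and CGN, the listed window matched by transcripts with the most counts held no E-box (for TJP1 these made up 41.0% of its counts, and TJP1-209, with over 50% of them in every group, matched no window), and none of the 14 windows of these genes held a TEAD core. Before the other start listed for CLDN7, farther upstream, there was none either, while another window held 1 for each of OCLN, TJP1 and TJP3. These matches describe letters, and no binding was measured in these libraries. For a core found in 11.9% of windows, 14 windows are few. The paper places most regions bound by YAP and TEAD4 in enhancers, and distal ones lie outside windows of 250 bases.

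The first comparison asked how tight junction mRNA differed between cells with activated YAP and cells with the empty vector. Of the 9 genes, 6 fell and 1 rose in MCF10A-YAP5SA by edgeR's quasi-likelihood test (adjusted p under 0.05 after Benjamini-Hochberg adjustment over all genes tested, and an absolute log2 fold change over 0.5). Over all genes tested, 14.1% were called lower and 15.3% higher. The median log2 fold change of the 9 genes was -1.76, where that of all genes was -0.01. In bulk RNA, fewer cells that express a gene and less RNA per cell cannot be told apart.

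**Figure D1:**
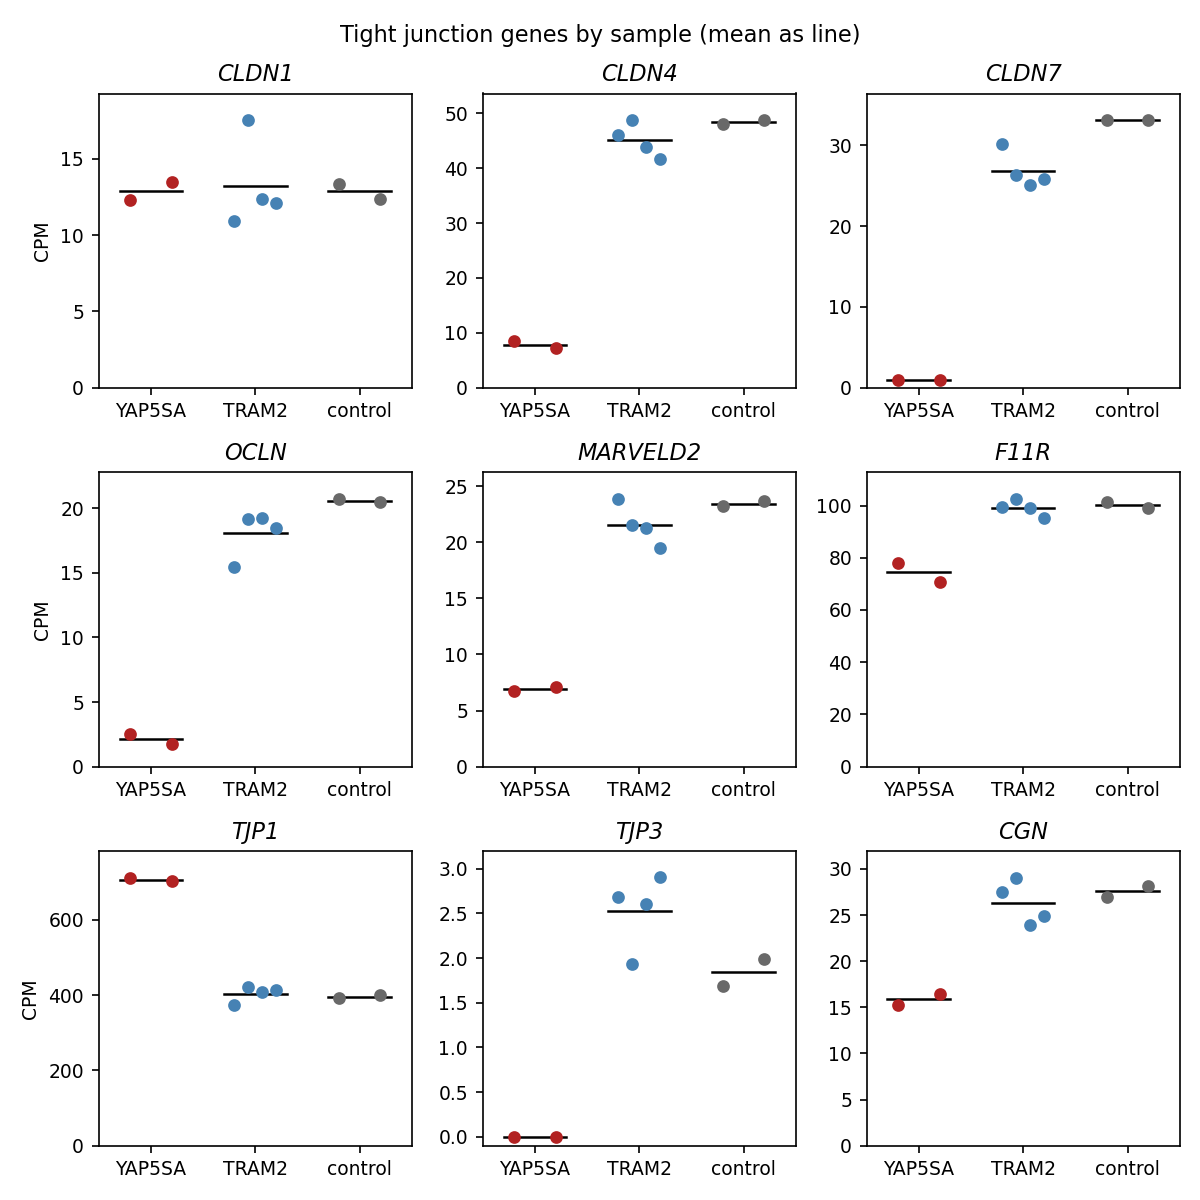
CPM of the 9 tight junction genes, with 1 point per sample, the group mean as a line and a linear axis of its own for each gene. CLDN7, OCLN, CLDN4, MARVELD2 and TJP3 of the MCF10A-YAP5SA samples lie far below those of the 6 other samples, TJP1 lies above, and CLDN1 overlaps.

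Among the claudins the differences were unequal. CLDN7, which is abundant along the lateral membrane of many epithelia, had 0.925 and 0.929 CPM in MCF10A-YAP5SA and 33.1 CPM in each control sample. These levels rest on 23 counts in MCF10A-YAP5SA and 1337 in control samples. CLDN7 thus stood at 2.8% of its control level, with a log2 fold change of -5.15 (SE 0.17, adjusted p = 1.1e-11).

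CLDN4, a claudin that tightens the barrier to sodium in cultured epithelia, had 8.49 and 7.20 CPM in MCF10A-YAP5SA and 48.1 and 48.7 CPM in control samples. Its level was 16.2% of control (log2 fold change -2.63, SE 0.11, adjusted p = 7.8e-11), and no MCF10A-YAP5SA sample came near a control sample. CLDN1, the claudin without which the skin barrier of mice fails, showed no such gap. It had 12.3 and 13.5 CPM in MCF10A-YAP5SA against 13.4 and 12.4 CPM in control samples, so that the groups overlapped. Its log2 fold change was -0.00, and the interval from -0.41 to 0.41 leaves room for a modest change in either direction (adjusted p = 0.998).

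Both MARVEL genes fell. OCLN had 2.52 and 1.78 CPM in MCF10A-YAP5SA and 20.7 and 20.5 CPM in control samples, which is 10.5% of control (log2 fold change -3.26, SE 0.17, adjusted p = 1.4e-09). MARVELD2, whose protein concentrates where the corners of cells meet, had 6.73 and 7.12 CPM in MCF10A-YAP5SA and 23.2 and 23.7 CPM in control samples. Tricellulin mRNA was therefore at 29.5% of control (log2 fold change -1.76, SE 0.12, adjusted p = 2.0e-08), with no overlap between groups.

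OCLN has a partial copy in the genome, OCLNP1, and estimated counts of near-identical sequences can be split between them. OCLNP1 averaged 0.442 ± 0.031 CPM in MCF10A-YAP5SA, 10.7 ± 0.97 CPM in MCF10A-TRAM2 and 10.7 ± 1.7 CPM in control samples (SD, n = 2, 4 and 2). The copy was thus lower in the same samples (log2 fold change against control -4.57, SE 0.27, adjusted p = 4.2e-09), and how reads were shared between OCLN and OCLNP1 was not tested.

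F11R, the junctional adhesion molecule of the set, differed little. It had 78.0 and 70.7 CPM in MCF10A-YAP5SA and 101 and 99.0 CPM in control samples. Although the groups did not overlap and the adjusted p was 3.7e-05, its log2 fold change of -0.43 (SE 0.06) stayed inside the fold threshold, and F11R was not called.

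The scaffold genes went in opposite directions. TJP1, the ZO protein that binds claudin tails and recruits actin, had 710 and 702 CPM in MCF10A-YAP5SA and 392 and 400 CPM in control samples. It was the 1 gene of the set that rose, 1.78-fold (log2 fold change 0.83, SE 0.06, adjusted p = 2.6e-08). TJP3, a close relative restricted largely to epithelia, had no count in either MCF10A-YAP5SA sample and 1.69 and 1.99 CPM in control samples.

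The control values of TJP3 rest on 37 counts in each sample, 74 in all. Against a floor of 3 counts over the MCF10A-YAP5SA group, TJP3 was at least 15.1-fold lower there, and it was called (adjusted p = 5.6e-06). CGN, the plaque protein that binds ZO-1 and restrains RhoA signalling, had 15.2 and 16.5 CPM in MCF10A-YAP5SA and 27.0 and 28.1 CPM in control samples. Cingulin mRNA was at 57.5% of control (log2 fold change -0.80, SE 0.11, adjusted p = 2.1e-05), a smaller difference than those of the strand proteins that fell.

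The calls of the 9 genes in this comparison were the same when libraries A and B of the first run were used alone, when any 1 sample was left out and when all 10 libraries entered the fit. TJP3 fell under the minimum when 5 CPM in 2 samples were asked for.

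The second comparison asked whether TRAM2 alone went with a difference in these genes. edgeR called 0 of the 9 in MCF10A-TRAM2 against control, where an unadjusted p under 0.05 was reached by 1. DESeq2 called none of the 3 genes to which it gave an adjusted p (CLDN4, F11R and TJP1), and its filter left the other 6, CLDN7 among them, without one. In this comparison 0.0571% of all genes tested were called in either direction, 9 genes by edgeR and 19 by DESeq2, although 1994 had an unadjusted p under 0.05. TRAM2 itself, whose level varied widely between the MCF10A-TRAM2 samples, did not pass here (log2 fold change 3.90, adjusted p = 0.072). The absence of a call by itself therefore carries little weight, and the intervals of the log2 fold changes say more. For TJP3 the interval (-0.093 to 1.015) reached past the fold threshold of 0.5. For every other gene of the set it stayed inside that threshold in both directions. Among these genes CLDN1 had the widest interval (-0.30 to 0.38), and that of CLDN7 (-0.47 to -0.14) came nearest to the threshold.

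The gene with the low unadjusted p was CLDN7. It had 30.1, 26.4, 25.1 and 25.8 CPM in MCF10A-TRAM2, against 33.1 CPM in each control sample. Each MCF10A-TRAM2 sample was below both control samples, at 81.2% of their mean (log2 fold change -0.30, 95% interval -0.47 to -0.14, adjusted p = 0.12). The adjusted p over the alternatives ran from 0.0066 to 0.86, and the fold threshold was not met under any of them.

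The other genes lay close to control. CLDN4 had 46.1, 48.7, 43.9 and 41.6 CPM in MCF10A-TRAM2 (log2 fold change -0.10, interval -0.25 to 0.05). OCLN had 15.4, 19.2, 19.3 and 18.5 CPM, each below both control samples (-0.18, interval -0.39 to 0.03). MARVELD2 ran from 19.5 to 23.8 CPM, CGN from 23.9 to 29.0 CPM, F11R from 95.4 to 102 CPM and TJP1 from 372 to 421 CPM, and each of these ranges enclosed or overlapped the control samples.

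CLDN1 was spread the most among the more abundant genes, with 17.5 CPM in MCF10A-TRAM2 B and 10.95 to 12.4 CPM in the other MCF10A-TRAM2 samples. Without that sample, its log2 fold change against control turned from 0.04 to -0.12. TJP3 had 2.68, 1.93, 2.60 and 2.90 CPM in MCF10A-TRAM2, 3 of them above both control samples, and its log2 fold change of 0.46 had an interval from -0.09 to 1.01.

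**Figure D2:**
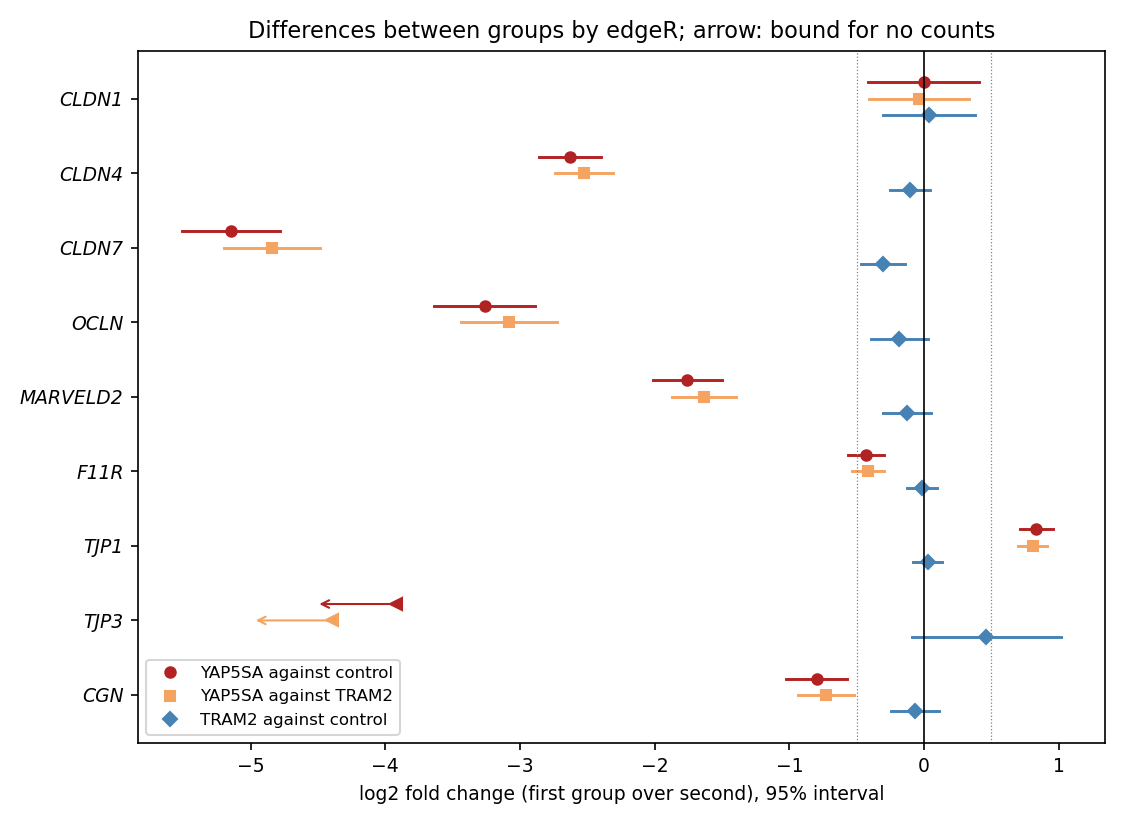
Log2 fold change of each gene in the 3 comparisons (first group over second), with 95% intervals from edgeR, and dotted lines at the fold threshold of 0.5. Triangles with arrows mark the bound for TJP3, which had no count in MCF10A-YAP5SA. The MCF10A-TRAM2 values lie near 0, and those of MCF10A-YAP5SA spread from -5.15 for CLDN7 to 0.83 for TJP1.

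The third comparison set the vectors against each other directly. Its groups also differ in backbone and resistance gene, and both had a higher mean level of TRAM2 mRNA than control samples. In MCF10A-YAP5SA against MCF10A-TRAM2, 1 of the 9 genes was called higher and 6 lower, where 14.9% of all genes were called higher and 14.6% lower. The log2 fold changes were -4.84 for CLDN7 (SE 0.17), -3.08 for OCLN (SE 0.17), -2.52 for CLDN4 (SE 0.10), -1.63 for MARVELD2 (SE 0.11), -0.73 for CGN (SE 0.10) and 0.81 for TJP1 (SE 0.05), each with an adjusted p of 1.9e-05 or less. With 0 counts in MCF10A-YAP5SA and 153 in MCF10A-TRAM2, the bound for TJP3 was at least 21.0-fold lower in MCF10A-YAP5SA. F11R (-0.42, SE 0.05) again passed the adjusted p but not the fold threshold, and CLDN1 (-0.04, interval -0.41 to 0.33) passed neither. The MCF10A-YAP5SA samples enter this comparison and the first, which are therefore not independent.

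Levels of different genes can be set side by side on the TPM scale, which divides by transcript length and fixes the total of each library. In control samples TJP1 stood highest with 40.1 ± 0.20 TPM, and TJP3 lowest with 0.347 ± 0.052 TPM (SD, n = 2). Between them came F11R (22.1 TPM), CLDN7 (20.0 TPM), CGN (13.7 TPM), CLDN4 (13.5 TPM), OCLN (10.2 TPM), MARVELD2 (6.08 TPM) and CLDN1 (3.06 TPM), of which the neighbours CGN and CLDN4 overlapped between samples. In MCF10A-YAP5SA, TJP1 had 73.9 ± 2.1 TPM, followed by F11R with 16.1 ± 1.4 TPM and CGN with 6.89 ± 0.66 TPM. CLDN1 (2.74 TPM), CLDN4 (2.13 TPM), MARVELD2 (1.77 TPM), OCLN (0.962 TPM) and CLDN7 (0.552 TPM) came next, with each overlapping its neighbour, and CLDN7 had rank 8 of 9, against rank 3 in control samples. In MCF10A-TRAM2 the order opened with TJP1, F11R and CLDN7 as in control samples.

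Short non-coding transcripts carry much of some of these TPM values. OCLN-203, a retained-intron transcript of 732 bases, held 89.3% of OCLN TPM in MCF10A-YAP5SA, 90.2% in MCF10A-TRAM2 cells and 91.7% in control samples, but 43.1% and 44.3% of OCLN counts in the vector groups and 47.5% and 52.5% in the control samples. F11R-201, annotated as lncRNA, held 54.9% of F11R TPM in MCF10A-YAP5SA, 54.6% in MCF10A-TRAM2 cells and 49.98% in control samples. When protein-coding transcripts alone were summed, OCLN had 0.0872 ± 0.0047 TPM in MCF10A-YAP5SA and 0.760 ± 0.023 TPM in control samples (SD, n = 2 each), and F11R had 6.69 ± 0.39 TPM in MCF10A-YAP5SA and 9.27 ± 0.34 TPM in control samples. The order of control levels then became TJP1, CLDN7, CLDN4, F11R, MARVELD2, CGN, CLDN1, OCLN and TJP3. In MCF10A-YAP5SA, CLDN1 then stood below CLDN4, with 1.70 ± 0.043 and 2.13 ± 0.22 TPM (SD, n = 2). The calls of the 9 genes were unchanged when protein-coding transcripts alone entered the edgeR fit. Short transcripts annotated as protein-coding remain in these sums. CLDN7-208 (605 bases) and CLDN7-207 (485 bases) held 41.0% and 14.8% of CLDN7 TPM in control samples, but 20.1% and 4.8% of its counts. In MCF10A-TRAM2 they held 28.9% and 29.8% of CLDN7 TPM. The level and rank of CLDN7 on the TPM scale rest in large part on them.

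TJP1 is made with or without the alpha exon of 240 bases, and cells with mature junctions are known to use the longer form. Of the counts assigned to 3 transcripts with this exon and 2 without it, the share with the exon was 42.0% and 44.8% in MCF10A-YAP5SA, 47.2%, 42.0%, 44.4% and 45.6% in MCF10A-TRAM2, and 44.0% and 41.6% in control samples. The groups overlapped, so that the higher TJP1 level in MCF10A-YAP5SA went with no separation of the forms at this depth.

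The claudin family as a whole had less mRNA and another make-up in MCF10A-YAP5SA. Summed over 23 claudin genes, the level was 15.1 ± 0.24 TPM in MCF10A-YAP5SA, 49.2 ± 1.9 TPM in MCF10A-TRAM2 and 49.3 ± 0.77 TPM in control samples (SD, n = 2, 4 and 2). With protein-coding transcripts alone the sums were 11.1 ± 1.8, 42.8 ± 1.5 and 44.5 ± 0.48 TPM in the same order. CLDN7 held 2.64% and 4.69% of the family in the MCF10A-YAP5SA samples, 34.6 to 40.5% in MCF10A-TRAM2 and 40.0% and 41.3% in control samples. The short transcripts CLDN7-207 and CLDN7-208 enter these shares. CLDN4 held 15.0% and 13.2% in MCF10A-YAP5SA, 23.4 to 26.6% in MCF10A-TRAM2 and 27.2% and 27.6% in control samples.

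The shares of CLDN12 and CLDN1 were larger in MCF10A-YAP5SA. CLDN12, an unusual claudin that lacks the tail motif by which claudins bind ZO proteins, held 67.1% and 51.1% in MCF10A-YAP5SA, 25.5 to 31.5% in MCF10A-TRAM2 and 21.8% and 23.1% in control samples. CLDN1 held 10.9% and 25.6% in MCF10A-YAP5SA, 5.01 to 7.88% in MCF10A-TRAM2 and 8.28% and 4.11% in control samples. A larger share was not a larger level: CLDN12 fell in MCF10A-YAP5SA to 35.8 ± 0.21 CPM, against 53.1 ± 1.7 CPM in control samples (SD, n = 2 each; log2 fold change -0.57, SE 0.11, adjusted p = 0.0010).

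**Figure D3:**
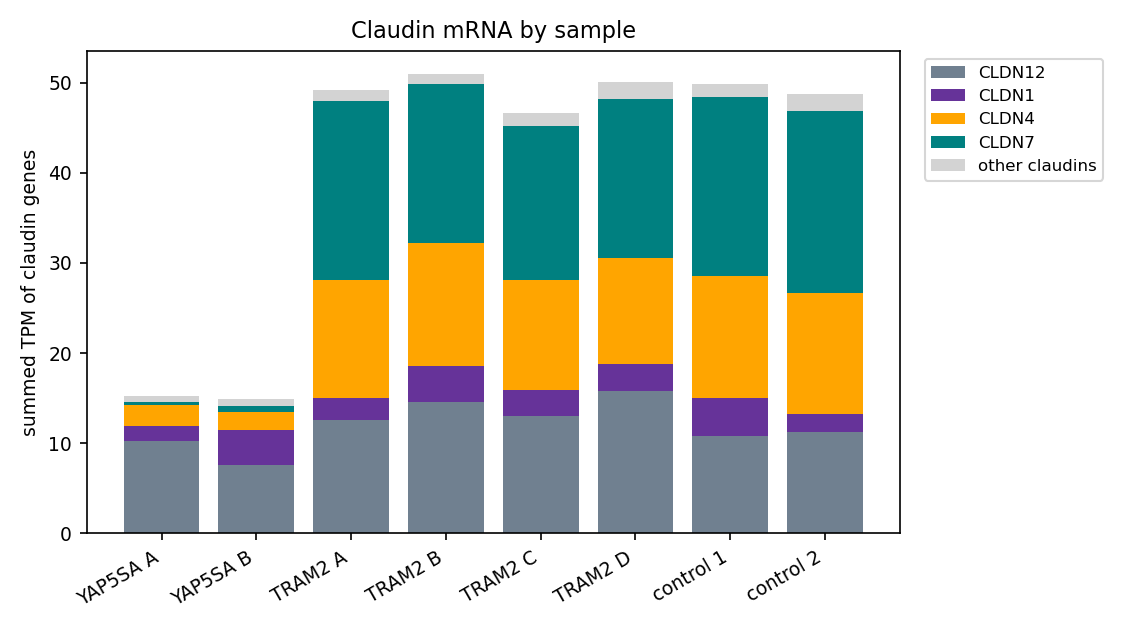
Summed TPM of 23 claudin genes in each sample, as bars from 0 divided by gene. The MCF10A-YAP5SA bars reach 14.9 and 15.3 TPM and consist mostly of CLDN12, while the other 6 bars reach 46.6 to 51.0 TPM with CLDN7 and CLDN4 as large parts.

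Around these genes, 63 other genes of the junction, its polarity complexes and neighbouring adhesion were examined in 5 lists, of which 40 genes were tested. In MCF10A-YAP5SA against control, 12 rose, 12 fell and 16 were not called, with a median log2 fold change of 0.17. The shares are to be read against the 15.3% and 14.1% of all genes called higher and lower. Of 20 other claudins, 4 were tested: CLDN15, a pore-forming claudin, rose (log2 fold change 1.27, SE 0.40), while CLDN8, CLDN12 and, just under the threshold (adjusted p = 0.0496), CLDN23 fell. CLDN8, a barrier-forming claudin, had 0 counts in MCF10A-YAP5SA and 137 in control samples, at least 28.0-fold lower.

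Of 11 other membrane proteins, 6 were tested, 3 of which rose and 3 fell. MARVELD3, the remaining member of the MARVEL family at the junction, fell to 6.34 ± 0.43 CPM in MCF10A-YAP5SA, against 22.3 ± 0.68 CPM in control samples (log2 fold change -1.81, SE 0.12), so that the whole MARVEL trio was lower. LSR (angulin-1), which recruits tricellulin to the corners, fell as well (-1.27, SE 0.07). ILDR2, a relative of LSR, had 4.82 ± 0.40 CPM in MCF10A-YAP5SA and 0.172 ± 0.015 CPM in control samples, where it rests on 7 counts (log2 fold change 4.74, SE 0.47), and the adhesion protein BVES rose by 0.94 (SE 0.14).

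Among cytoplasmic plaque proteins, 13 of 14 were tested, and 3 rose, 1 fell and 9 were not called. MPDZ (MUPP1), a scaffold with many PDZ domains that binds claudin tails, had 52.9 ± 1.7 CPM in MCF10A-YAP5SA and 3.39 ± 0.38 CPM in control samples (log2 fold change 3.95, SE 0.14). Its paralog PATJ fell (-0.65, SE 0.06). MPP5 (PALS1), which joins PATJ to the Crumbs complex, rose by 1.78 (SE 0.06).

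Of 8 genes of the PAR polarity complex, which helps to mature the junction, 7 were tested and 3 rose: PARD3 (log2 fold change 0.91, SE 0.06), PARD3B (3.88, SE 0.29) and PARD6G (1.28, SE 0.35). None fell, and 4 were not called. Of 10 claudin partners and adhesion genes, 2 rose and 5 fell. CDH1 (E-cadherin), the cadherin of the adherens junction, fell (-1.97, SE 0.07), as did its partner CTNND1 (p120-catenin, -0.73, SE 0.05) and NECTIN1 (-1.54, SE 0.09), while NECTIN2 rose (1.29, SE 0.07). EPCAM, a binding partner of claudin-7 picked out here after its values were seen, had 23.6 ± 2.1 CPM in MCF10A-YAP5SA and 161 ± 3.0 CPM in control samples (log2 fold change -2.77, SE 0.16).

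**Figure D4:**
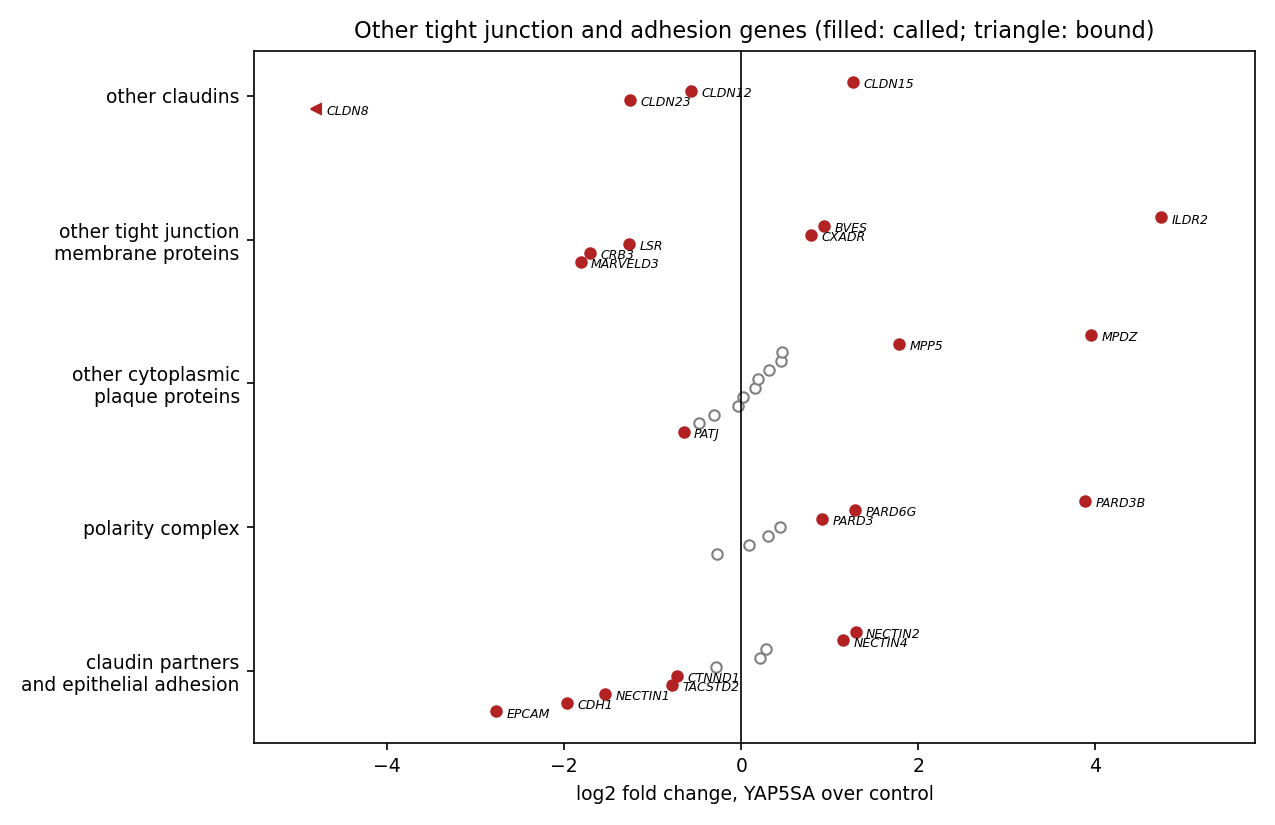
Log2 fold change in MCF10A-YAP5SA over control for the tested genes of 5 lists, with filled points for called genes, open points for the rest and a triangle at the bound for CLDN8, and 1 tested gene left out. Other claudins and membrane proteins lie on both sides of 0, and the polarity genes that were called lie to the right.

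In MCF10A-TRAM2 against control, edgeR called 0 of these 40 genes, of which 4 reached an unadjusted p under 0.05, and DESeq2 called 0 of the 24 to which it gave an adjusted p. Over all genes, edgeR called 0.0571%, and 1994 of 15768 reached an unadjusted p under 0.05, so that these counts do not set the lists apart. An abundant gene of each list is given here: LSR averaged 98.6 ± 5.3 CPM in MCF10A-TRAM2 and 102 ± 1.4 CPM in control samples, CDH1 408 ± 25 and 383 ± 11 CPM, and CLDN12 59.2 ± 7.2 and 53.1 ± 1.7 CPM in the same order (SD, n = 4 and 2). The plaque gene YBX3 averaged 293 ± 8.8 and 305 ± 1.6 CPM, and the polarity gene CDC42 147 ± 0.71 and 149.5 ± 1.0 CPM, in that order too. MARVELD3, with 18.97 ± 1.4 CPM in MCF10A-TRAM2 and 22.3 ± 0.68 CPM in control samples, gave a log2 fold change of -0.23 (SE 0.08, adjusted p = 0.27). MCF10A-YAP5SA against MCF10A-TRAM2 gave 12 higher, 12 lower and 16 not called, where 14.9% of all genes were called higher and 14.6% lower.

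Markers of mammary cell types moved with the same samples. The summed level of 5 general epithelial genes was 2849 to 2907 CPM in MCF10A-YAP5SA, 1987 to 2305 CPM in MCF10A-TRAM2 and 2038 to 2115 CPM in control samples. These genes disagreed: KRT8 and KRT18 rose in MCF10A-YAP5SA against control, while CDH1, EPCAM and KRT19 fell. The summed level of 6 basal genes was 2036 to 2090 CPM in MCF10A-YAP5SA, 2753 to 3121 CPM in MCF10A-TRAM2 and 2959 to 2990 CPM in control samples, and TP63, the basal transcription factor, had 0.0841 and 0.155 CPM in MCF10A-YAP5SA against 3.11 and 2.48 CPM in control samples. The basal genes did not move together: KRT17 rose, with 453 ± 17 CPM in MCF10A-YAP5SA and 273 ± 8.4 CPM in control samples (adjusted p = 0.040), and KRT14 had 53.1 ± 2.8 and 56.7 ± 0.11 CPM in the same order (adjusted p = 0.87). The sum of 6 luminal genes was 2811 to 2870 CPM in MCF10A-YAP5SA, 1493 to 1754 CPM in MCF10A-TRAM2 and 1533 to 1598 CPM in control samples, most of it KRT8 and KRT18, and PGR was at 0 throughout. Here GATA3 rose as the keratins did, whereas FOXA1 fell to 1.49 ± 0.030 CPM in MCF10A-YAP5SA, against 11.5 ± 0.32 CPM in control samples (adjusted p = 1.3e-07), and ESR1 to 2.72 ± 0.75 CPM, against 5.52 ± 0.040 CPM (adjusted p = 0.00087). The part of these differences in the tight junction values was not tested. Other cell types left few counts: 7 fibroblast genes summed to 1.55 to 1.77 CPM in MCF10A-YAP5SA, 2.97 to 3.87 CPM in MCF10A-TRAM2 and 3.43 to 4.26 CPM in control samples. The endothelial genes CLDN5 and VWF and the leukocyte gene CD3E were at 0 in every sample, while their 7-gene and 5-gene sums lay between 3.02 and 17.8 CPM and between 0.252 and 2.66 CPM. These lists were not silent: the endothelial gene PECAM1 averaged 0.246 CPM in MCF10A-YAP5SA, 11.3 CPM in MCF10A-TRAM2 and 7.70 CPM in control samples. In MCF10A-YAP5SA against control, PECAM1 fell (log2 fold change -4.95, adjusted p = 5.9e-08 by edgeR). The leukocyte gene CD14 fell as well (-3.63, adjusted p = 3.0e-05), while the endothelial gene TEK rose (2.7, adjusted p = 0.024) on 21 and 5 counts.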

How the data were processed

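Libraries of MCF10A cells with a YAP5SA (2), TRAM2 (4) or empty vector (4) were grouped by their titles, where YAP5SA is labelled YAP. The authors trimmed adapters with cutadapt and quantified transcripts with Salmon, and the deposited tables hold per transcript an estimated count, a TPM value and an effective length (for version, index, strand option and genome build: not given in the sources used here). No values were pooled by the authors.

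Deposited estimated counts were summed per gene and rounded. Control libraries A with C and B with D were summed, since a chi-square test over genes with at least 50 counts on average and values within 0.001 of whole numbers did not tell them apart from sampling noise. Other control pairs differed beyond it. Over all genes at that minimum, whole or not, every control pair differed, with 1.23 and 1.22 per degree of freedom in the summed pairs and 1.42 to 1.49 in the others. Deposited TPM values were summed per gene and averaged over summed libraries.

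Genes were filtered with filterByExpr, TMM-normalized and tested with edgeR 4.0.16 in R 4.3.3 (glmQLFit with the robust option, glmQLFTest) in 1 fit of 8 samples, with p-values adjusted over 15768 genes. Calls used the study's thresholds (log2 fold change beyond 0.5 in size, adjusted p under 0.05). CPM values use the TMM-scaled library sizes. Standard errors came from the fold change and its F statistic, and intervals are at 95%. P-values measure the spread between these samples, which may be technical, and the floor of 3 counts covers counting error. The steps were tested on simulated data. DESeq2 1.42.0 and other settings were alternatives.

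The 9 genes, the lists and the marker genes were chosen with earlier results of these data known. All 9 were named, and of each other list up to 4 called genes by adjusted p or, in a list without calls, up to 2 by mean CPM. Exceptions are stated, and some genes of the lists are counted but not reported here by name. The alpha-exon forms of TJP1 were told apart by transcript identifiers of a GENCODE annotation later than that of the deposited index.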

Additional observations from a re-analysis of the deposited data

How the results depend on the processing

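For the 9 tight junction genes, the counts of calls in all 3 comparisons stayed within 1.5 times under the alternatives run. Against control and against MCF10A-TRAM2, the 7 called genes of MCF10A-YAP5SA kept direction and call throughout, apart from TJP3, which was not tested with a minimum of 5 CPM in 2 samples. With the adjusted p alone, F11R was called too, and 7680 genes were called in MCF10A-YAP5SA against control and 8078 against MCF10A-TRAM2. With OCLNP1 counts added to OCLN, an alternative chosen after seeing the data, OCLN kept its call. For MCF10A-TRAM2 against control, 9 genes were called as reported, 67 with 10 separate libraries, 25 with libraries A and B, 19 with DESeq2 (which gave 6 of the 9 tight junction genes no adjusted p there), 136 without a filter, 16 with the 5 CPM minimum, 4 with protein-coding transcripts, 5 with the length offset and 23 with the adjusted p alone; without single samples the count ran from 3 (without control 2) to 39 (without MCF10A-TRAM2 B), and it was 19 without MCF10A-TRAM2 A. The cause was not tested. Letters shared between groups did not pair the libraries (correlation of deviations -0.03 to 0.04), and the replicate block with 10 libraries gave 69 calls there, 4493 in MCF10A-YAP5SA against control and no other call among the 9 genes.

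Signs turned for genes that were not called. CLDN1 in MCF10A-YAP5SA against control, at -0.00, was 0.0107 with 10 libraries, 0.0084 with RLE size factors, 0.006 with DESeq2, 0.0028 with the 5 CPM minimum, 0.0043 with protein-coding transcripts, and, over samples left out, ran from -0.064 (without MCF10A-YAP5SA B) to 0.074 (without MCF10A-YAP5SA A). Against MCF10A-TRAM2 it ran from -0.11 (without MCF10A-TRAM2 A) to 0.12 (without MCF10A-TRAM2 B). In MCF10A-TRAM2 against control, CLDN1 ran from -0.12 (without MCF10A-TRAM2 B) to 0.11 (without MCF10A-TRAM2 A), F11R was 0.038 with libraries A and B, 0.007 with upper-quartile scaling and -0.032 (without MCF10A-TRAM2 B) to 0.0091 (without MCF10A-TRAM2 D), and CGN was 0.03 with libraries A and B. Depth limits CLDN7 and TJP3 most, with 23 and 0 counts in MCF10A-YAP5SA.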
